A study of Mus musculus with 12 samples.

Results

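The 51 genes described here drive or mark the cell division cycle, and were read in activated regulatory T cells (Treg) of mice with a venous thrombus. They were matched by gene name in the table of exon reads of every library. All 51 were found among the 20835 genes that could be joined over the libraries, and all 51 passed the filter on low counts, which kept 11686 genes. For description they were divided by role into 18 genes of origin licensing and S phase, 7 regulators of G1 and of entry into S phase, and 26 genes of G2 and mitosis. Pclaf carries the older name 2810417H13Rik in 5 of the 12 libraries and was joined through its gene identifier and that synonym.

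Treg were sorted from DEREG mice, a C57BL/6 line with a transgene, 23.2Spar, in which Foxp3 sequences drive a diphtheria toxin receptor fused to EGFP. The 3 groups, thrombus, vein wall and spleen, all came from mice with a ligated inferior vena cava, at day 14 after the ligation, and all were live CD45+ CD4+ EGFP+ CD69+ cells, CD69 being an early activation marker. No unligated mice enter these comparisons, so the spleen of ligated mice is what thrombus and vein wall are set against. The labels give neither the age of the mice nor whether mice were pooled, and the p-values given here therefore speak of the variation among these samples, part of which may be technical.

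Cells license their replication origins in G1 by loading the Mcm2 to Mcm7 helicase, with the help of Cdc6 and Cdt1, and G1 cyclins with their kinases then release E2F transcription factors that switch on the S phase genes. A later group, which includes the cyclins B, the spindle checkpoint kinases and the centromere proteins, is switched on toward G2 and mitosis, in part through promoter elements named CHR (cell cycle genes homology region) and CCAAT boxes. T cells outside an immune response are mostly quiescent. Treg are known for a fraction that cycles in the unmanipulated animal.

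The 12 libraries held 9719151 to 55386086 total exon reads, and a count of 0 allows 0.0542 to 0.309 CPM (read counts scaled to a common library size), a limit that covers counting error only. Spleen 3 and spleen 4, and likewise vein wall 3 and vein wall 4, differed far less than any other pair of 1 tissue (mean chi-square per gene of 3.96 and 2.55, against 96.9 to 355.3 in the other 16 pairs). Each pair was summed and counted as 1 sample, which left 4 thrombus, 3 vein wall and 3 spleen samples. The files come in 3 layouts with different gene models: set 1 holds thrombus 1 and spleen 1, set 2 holds thrombus 2, vein wall 1 and spleen 2, and set 3 holds the other 7 libraries. Among genes of the sort, Foxp3 had 275 to 706 CPM in thrombus and 354 to 484 CPM in vein wall, against 401 to 675 CPM in spleen. Cd69 did not overlap, with 406 to 818 CPM in thrombus and 638 to 878 CPM in vein wall, against 240 to 347 CPM in spleen. Markers of other cells were present unevenly, and 8 dendritic cell markers summed to 10951 CPM in thrombus 2 and 11958 CPM in vein wall 1, against 1160 to 2274 CPM in spleen. Most of this was Cd74, H2-Ab1 and H2-Aa, with 7251, 2205 and 1405 CPM in thrombus 2 and 8244, 2350 and 1344 CPM in vein wall 1. Of the other markers in the set, Siglech was highest, at 76.0 and 12.7 CPM. B and plasma cell markers also peaked in these samples, at 979 and 1326 CPM, so the sum is not a measure of dendritic cells alone. Values below are CPM of total exon reads on library sizes scaled by trimmed means (TMM), unless another unit is named.

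Promoters of the members differed by role in the short words they hold. The RefSeq promoter table (GRCm38.p6), which gives 250 bases before to 50 bases after the start of a gene, held windows for 42 of the 51 members. It has none for Mcm4, Gins2, Ccnd2, Ccne2, Ccna2, Aurkb, Tpx2, Stmn1 and Kif20a. E2F words (TTTCCCGC, TTTCGCGC, TTTGCCGC and TTTGGCGC, on both strands) stood in 8 of 16 licensing and S phase genes (50%), 1 of 5 G1 genes (20%) and 1 of 21 mitotic genes (4.76%), against 2.61% of all 27025 genes in the table. CHR words (TTTGAA and TTCGAA, on both strands) stood in 16 of 21 mitotic genes (76.2%), 3 of 16 S phase genes (18.8%) and 0 of 5 G1 genes, against 21.7% of all genes. CCAAT, on both strands, stood in 19 of 21 mitotic genes (90.5%), 9 of 16 S phase genes (56.3%) and 2 of 5 G1 genes (40%), against 41.1% of all genes. Mcm7 and Cdk1 held both an E2F and a CHR word, as 0.370% of all genes do. A word is a match of letters, not a bound site.

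**Figure D1:**
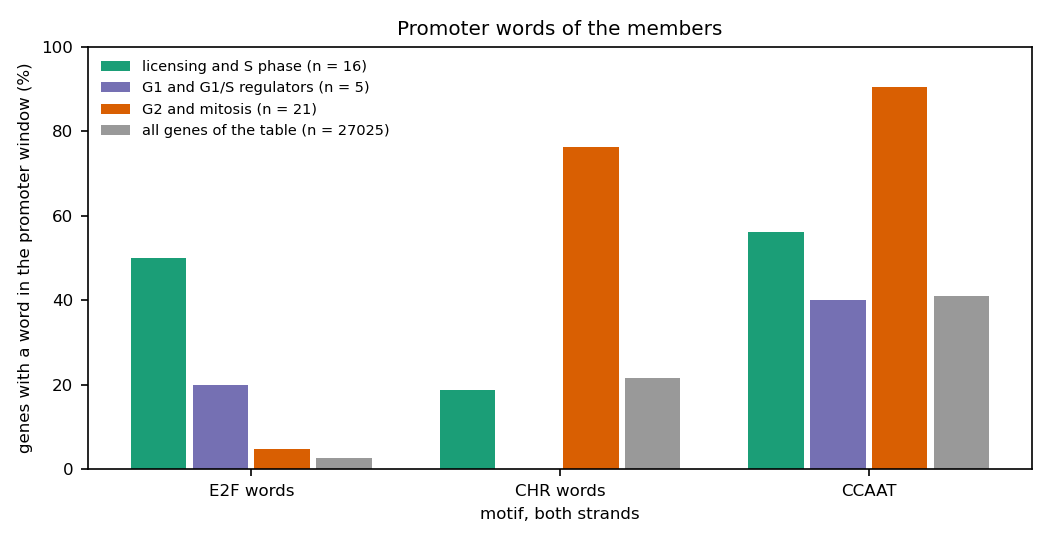
Share of genes (%, vertical axis) whose RefSeq promoter window holds an E2F word, a CHR word or CCAAT, for the 3 role groups and for all 27025 genes of the table (grey). E2F words stand in 50% of the licensing and S phase genes and CHR words in 76.2% of the G2 and mitosis genes.

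The 5 windows below were chosen because their genes carry the results that follow and show each kind of word. Capitals mark E2F words in Mcm6 and Pclaf and CHR words in Ccnb2, Bub1 and Hmgb2, on either strand, and all windows read 5′ to 3′ on the strand of the gene. They are Mcm6 at chr1:128359656-128359955 (minus strand), Pclaf at chr9:65890073-65890372 (plus), Ccnb2 at chr9:70421505-70421804 (minus), Bub1 at chr2:127831810-127832109 (minus) and Hmgb2 at chr8:57511593-57511892 (plus), build GRCm38.p6. In Mcm6 the first run of capitals is an E2F word on the gene's strand overlapping one on the opposite strand, and in Pclaf the word lies on the opposite strand, 5 bases before the start.
Mcm6: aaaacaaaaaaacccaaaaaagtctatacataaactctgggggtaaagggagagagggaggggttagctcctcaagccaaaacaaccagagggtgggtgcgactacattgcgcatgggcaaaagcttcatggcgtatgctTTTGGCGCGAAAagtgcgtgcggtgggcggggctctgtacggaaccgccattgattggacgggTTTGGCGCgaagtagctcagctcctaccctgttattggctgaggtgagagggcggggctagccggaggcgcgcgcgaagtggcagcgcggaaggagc
Pclaf: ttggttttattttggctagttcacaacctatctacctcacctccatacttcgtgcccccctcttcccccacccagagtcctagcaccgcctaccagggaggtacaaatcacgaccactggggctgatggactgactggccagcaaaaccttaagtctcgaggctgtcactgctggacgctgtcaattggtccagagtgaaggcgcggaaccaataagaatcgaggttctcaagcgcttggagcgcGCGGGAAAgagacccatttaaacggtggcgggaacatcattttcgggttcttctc
Ccnb2: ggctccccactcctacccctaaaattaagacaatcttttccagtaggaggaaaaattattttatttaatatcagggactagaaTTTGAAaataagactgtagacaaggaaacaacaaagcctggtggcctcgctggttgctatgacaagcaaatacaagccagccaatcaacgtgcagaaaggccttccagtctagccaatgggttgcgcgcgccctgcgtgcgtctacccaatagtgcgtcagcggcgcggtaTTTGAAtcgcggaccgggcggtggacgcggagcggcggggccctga
Bub1: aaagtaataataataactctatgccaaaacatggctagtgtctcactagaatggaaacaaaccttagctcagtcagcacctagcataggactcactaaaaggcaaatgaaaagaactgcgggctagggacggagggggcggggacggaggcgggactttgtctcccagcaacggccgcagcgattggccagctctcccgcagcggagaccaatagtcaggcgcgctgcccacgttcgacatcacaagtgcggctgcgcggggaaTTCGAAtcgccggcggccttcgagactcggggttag
Hmgb2: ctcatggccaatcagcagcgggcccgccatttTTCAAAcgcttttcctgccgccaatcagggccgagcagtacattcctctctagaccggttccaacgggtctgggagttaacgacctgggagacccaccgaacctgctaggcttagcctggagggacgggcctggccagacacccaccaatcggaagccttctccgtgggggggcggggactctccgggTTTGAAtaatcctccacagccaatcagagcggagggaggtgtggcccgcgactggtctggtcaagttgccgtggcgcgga
The S phase windows shown hold E2F words and no CHR word, whereas the 3 mitotic windows hold CHR words and no E2F word. This contrast follows from the choice of windows, and the shares given before describe the role groups. Among the other members, Pcna and Dut held no E2F word, Mcm2 held a CHR word, and Ccnb1 and Birc5 held no CHR word. Ccnb2 has a CHR word 4 bases after its start and 3 CCAAT boxes 21, 54 and 87 bases before it.

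Levels per kilobase of exon put Hmgb2, a DNA-bending chromatin protein, first among the members at 221 ± 74.5 CPM per kb (SD over all 10 samples). Pcna, the sliding clamp of the replicative polymerases, followed at 189 ± 67.3 CPM per kb, then Cdk4 at 128 ± 43.9, Stmn1 at 126 ± 71.7, Ccnd2 at 118 ± 24.3 and Cks2 at 111 ± 50.2 CPM per kb. These neighbours lie within 1 SD of each other. The median member stood at 13.3 CPM per kb among the S phase genes, 9.61 among the G1 genes and 2.54 among the mitotic genes. Mean CPM over all samples was under 10 for 50% of the mitotic members, 42.9% of the G1 members and 5.56% of the S phase members.

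**Figure D2:**
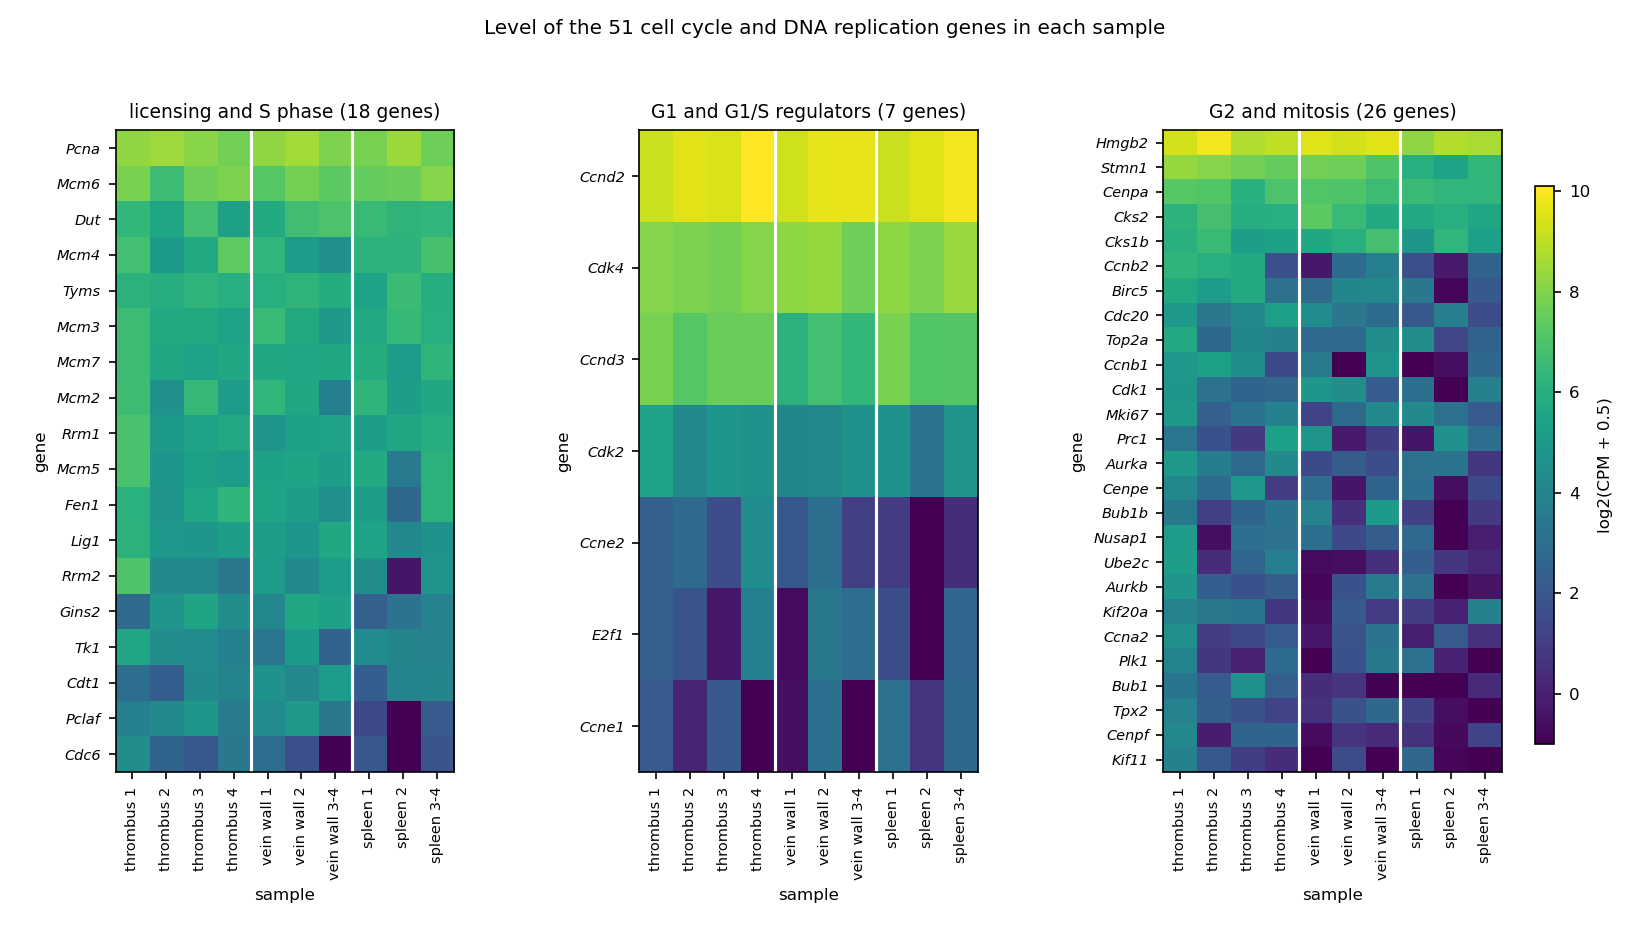
Level of each of the 51 members (rows, highest mean first) in each of the 10 samples (columns, thrombus, vein wall, spleen), as log2(CPM + 0.5) in colour, by role group. The Stmn1 row runs from 133 to 326 CPM in thrombus and vein wall, against 42.7 to 80.3 CPM in spleen, and 15 of the 26 mitotic members are highest in thrombus 1.

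The mitotic members varied more between samples of 1 tissue than the others. The pooled SD of log2(CPM + 0.5) within tissues had a median of 1.48 over the 26 mitotic genes, 0.84 over the 18 S phase genes and 0.58 over the 7 G1 genes, against 0.80 over all 11686 genes tested. Thrombus 1 stood apart, with the highest level of all 10 samples for 26 of the 51 members, 15 of them mitotic, 9 of S phase and 2 of G1. For all genes tested it was the highest sample in 9.54%. In thrombus 1, 8 erythroid markers summed to 55.2 CPM, of which Tfrc held 51.1 CPM, against 44.2 to 2077 CPM in the other thrombus samples. Its 7 macrophage markers summed to 95.5 CPM, against 55.9 to 1768 CPM in those samples. B and plasma cell markers summed to 353 CPM and dendritic cell markers to 2923 CPM, against 203 to 979 and 1617 to 10951 CPM in those samples. Both lay above spleen (160 to 290 and 1160 to 2274 CPM). Its neutrophil markers, at 8.50 CPM, were the highest of all 10 samples. The part of such cells in the levels of thrombus 1 was not tested. Results that rest on thrombus 1 are given with and without it.

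The first question was whether the mitotic genes differed between Treg of thrombus or vein wall and Treg of spleen. In thrombus Treg, 1 of the 51 members rose against spleen, Stmn1, which encodes the microtubule-destabilising protein stathmin, by 1.99 ± 0.37 on the log2 scale (SE), and it is counted here with the mitotic genes. In the same fit, by tissue alone, no member passed edgeR's test in vein wall against spleen or in thrombus against vein wall, where 7 and 5 of them reached an unadjusted p under 0.05 and DESeq2 called 1 each. Of all genes, 5.47% and 2.91% reached this p, and DESeq2 called 1.02% and 0.0868%. The fold changes of all 26 mitotic members lay above 0 in thrombus against spleen, with a median log2 value of 1.83, against 0.03 over all genes, but 25 of the 26 did not pass the test. In vein wall against spleen 19 of 26 lay above 0, with a median of 0.81, against -0.01 over all genes. This median was 0.33 without vein wall 3-4 (16 of 26 above 0) and 1.32 with the set of files as a covariate (21 of 26).

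Stmn1 (ENSMUSG00000028832, chr4:134468320-134473843, plus strand, GRCm38) had 326, 267, 213 and 177 CPM in thrombus 1 to 4. It had 214, 201 and 133 CPM in vein wall 1, 2 and 3-4, against 62.8, 42.7 and 80.3 CPM in spleen 1, 2 and 3-4. Every thrombus and every vein wall sample lay above every spleen sample, while thrombus and vein wall overlapped. The gene passed in thrombus against spleen in edgeR's quasi-likelihood test (adjusted p = 0.0245), and such a call was made for 0.145% of all genes tested in that comparison. With the set of files as a covariate the log2 fold change was 1.99 ± 0.31 (adjusted p = 0.00234, where 0.454% of all genes were called). Within the sets the log2 difference was 2.37 in set 1, 2.63 in set 2 and 1.27 in set 3.

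In vein wall against spleen, Stmn1 gave a log2 fold change of 1.56 ± 0.38 in the fit by tissue alone (adjusted p = 0.223 in edgeR's test, with 0.111% of all genes called). With the set of files as a covariate it was 1.66 ± 0.33 (adjusted p = 0.0287, with 0.411% called), and the within-set differences were 2.31 in set 2 and 1.02 in set 3. Thrombus against vein wall gave 0.43 ± 0.35 for Stmn1, with an adjusted p of 0.999 in edgeR's test, and here 0% of all genes were called. The call in thrombus against spleen rested on a small number of samples: the adjusted p was 0.102 without spleen 1, 0.284 without spleen 2, 0.0802 without spleen 3-4, 0.0746 without thrombus 1 and 0.202 without set 2, at log2 fold changes of 1.75 to 2.22. Markers of other cells also differed between tissues. Of the sets given here, only fibroblast markers lay above spleen in every thrombus and every vein wall sample. Fibroblast markers (6 genes) summed to 4.34 to 18.7 CPM in thrombus and 10.3 to 59.8 CPM in vein wall, against 0 to 0.453 CPM in spleen, where Col1a2, Col3a1 and Pdgfra held no read. Endothelial markers (5 genes) summed to 54.9 to 66.8 CPM in thrombus and 44.4 to 47.4 CPM in vein wall, against 23.9 to 52.5 CPM in spleen, where Cdh5 and Tie1 held no read. Most of this sum was Pecam1, with 54.7 to 65.0 CPM in thrombus, 41.2 to 47.3 CPM in vein wall and 23.2 to 52.5 CPM in spleen. Spleen 3-4 lay above every vein wall sample. B and plasma cell markers (7 genes) summed to 203 to 979 CPM in thrombus and 371 to 1326 CPM in vein wall, against 160 to 290 CPM in spleen. For these, thrombus 4 lay within the spleen range. Their part in the levels of Stmn1 and of the other mitotic members was not tested. Since these are bulk samples, fewer cells with a transcript and less of it per cell cannot be told apart.

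**Figure D3:**
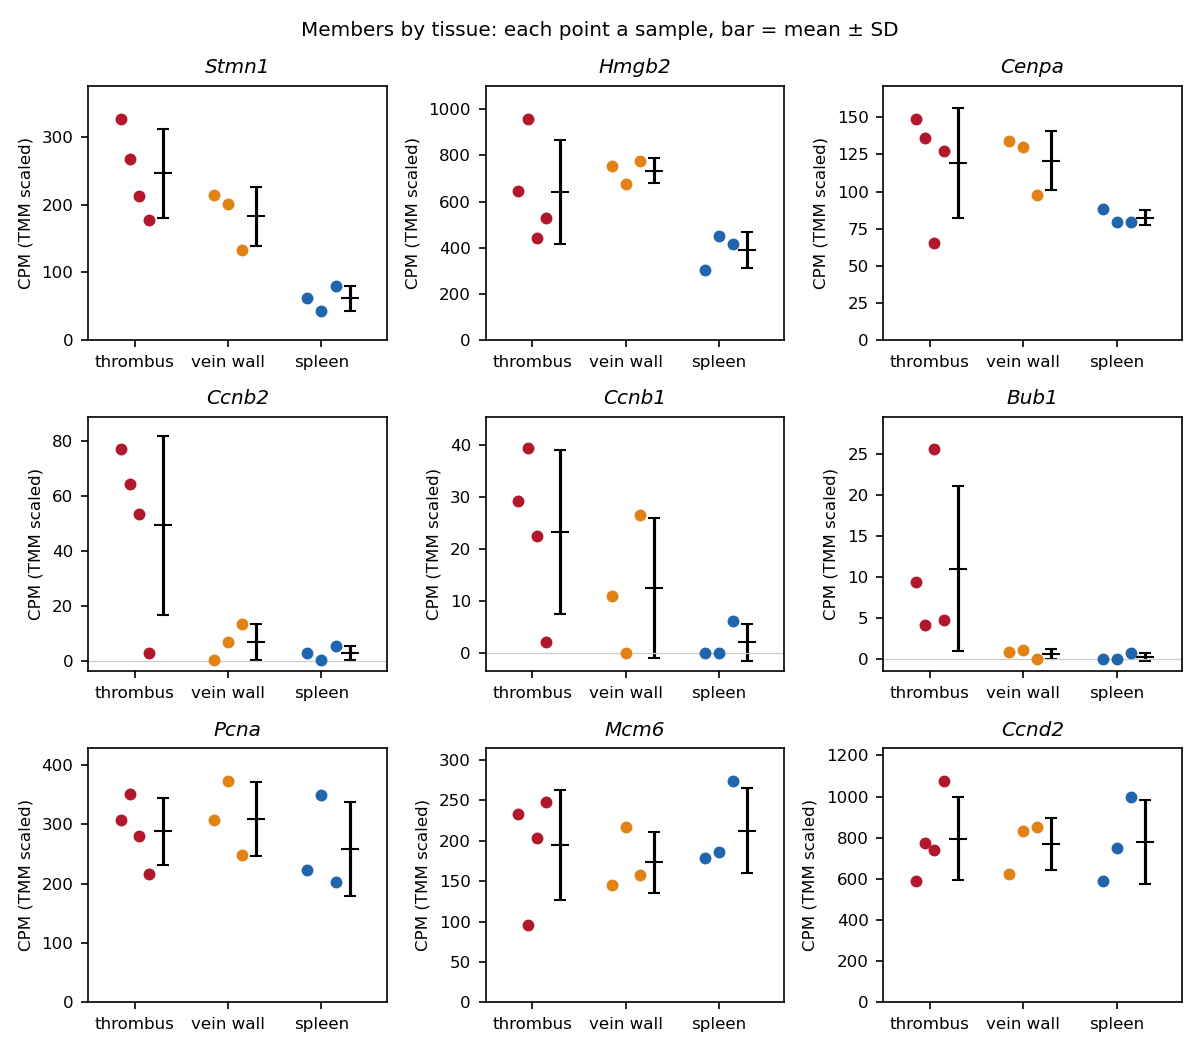
CPM (vertical axis, linear) of 9 members in thrombus (n = 4), vein wall (n = 3) and spleen (n = 3); each point is a sample, and the bar beside the points gives the mean ± SD. Stmn1 lies above spleen in every thrombus and vein wall sample, whereas Pcna, Mcm6 and Ccnd2 overlap between all tissues.

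Hmgb2 had 645, 956, 441 and 529 CPM in thrombus 1 to 4, and 753, 675 and 775 CPM in vein wall, against 303, 452 and 417 CPM in spleen. All vein wall samples lay above all spleen samples, and thrombus 3 lay within the spleen range. The fitted log2 fold change was 0.91 ± 0.34 in vein wall against spleen (adjusted p = 0.766) and 0.72 ± 0.32 in thrombus against spleen (adjusted p = 1 in edgeR's test). Of its exon reads 37.4% had a unique match. Its level is therefore uncertain where similar sequences share its reads. Thrombus 2, the highest sample, was also a sample high in the summed markers of dendritic cells (mostly Cd74, H2-Ab1 and H2-Aa) and of B and plasma cells. The part of such cells in this level was not tested.

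Cenpa, the histone H3 variant that marks centromeres, had 149, 136, 65.3 and 127 CPM in thrombus 1 to 4. It had 134, 130 and 98.0 CPM in vein wall, against 88.6, 79.7 and 79.6 CPM in spleen. Vein wall did not overlap spleen, and thrombus 3 was the lowest of the 10 samples. edgeR gave a log2 fold change of 0.55 ± 0.38 in vein wall against spleen (adjusted p = 0.960) and 0.53 ± 0.35 in thrombus against spleen (adjusted p = 1).

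Ccnb2, a cyclin B that activates the mitotic kinase Cdk1, had 77.3, 64.4, 53.5 and 2.78 CPM in thrombus 1 to 4. It had 0.317, 6.88 and 13.5 CPM in vein wall, against 2.81, 0.375 and 5.34 CPM in spleen. Of the thrombus samples 3 lay above all others, and thrombus 4 lay within the spleen range. On the log2 scale the fold change was 4.11 ± 1.38 in thrombus against spleen (adjusted p = 0.854) and 1.27 ± 1.26 in vein wall against spleen (adjusted p = 0.963, edgeR). Within the sets, thrombus exceeded spleen by 4.56, 6.21 and 1.19 on the log2 scale in sets 1, 2 and 3.

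Ccnb1, the other main cyclin B, had 29.4, 39.5, 22.5 and 2.23 CPM in thrombus, and 11.1, 0 and 26.7 CPM in vein wall, against 0, 0.161 and 6.26 CPM in spleen. As for Ccnb2, thrombus 4 was the low thrombus sample and lay within the spleen range, and vein wall 2 held no read. Its log2 fold change was 3.42 ± 2.12 in thrombus against spleen and 2.52 ± 2.09 in vein wall against spleen, and neither passed edgeR's test (adjusted p = 1 and 0.961). Leaving out each sample in turn gave 2.79 to 7.97 and 1.33 to 7.09, the highest of each without spleen 3-4.

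Bub1, a kinase of the spindle checkpoint, had 9.41, 4.19, 25.6 and 4.73 CPM in thrombus 1 to 4. It had 0.824, 1.13 and 0.0249 CPM in vein wall, against 0, 0 and 0.777 CPM in spleen. Every thrombus sample lay above every vein wall and spleen sample. The fitted log2 fold change was 5.27 ± 1.86 in thrombus against spleen (adjusted p = 0.843), 1.21 ± 1.62 in vein wall against spleen (adjusted p = 0.977) and 4.06 ± 1.76 in thrombus against vein wall (adjusted p = 0.999, edgeR). Leaving out each sample in turn gave 4.46 to 10.6, 0.57 to 6.56 and 3.22 to 4.72 in these comparisons. The highest value of each comparison against spleen came without spleen 3-4, which leaves no spleen read, so these sizes are fitted values and not bounds.

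Bub1b, which encodes the checkpoint protein BubR1, showed another order, with 10.6, 1.62, 5.40 and 9.09 CPM in thrombus and 14.8, 0.967 and 32.8 CPM in vein wall, against 1.75, 0 and 1.37 CPM in spleen. Vein wall 1 and vein wall 3-4 held the highest values, and vein wall 2 and thrombus 2 lay within the spleen range. edgeR gave a log2 fold change of 3.95 ± 1.46 in vein wall against spleen (adjusted p = 0.766) and 2.67 ± 1.34 in thrombus against spleen (adjusted p = 1).

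The other 19 mitotic members had log2 fold changes of 0.28 for Cks1b to 3.26 for Tpx2 in thrombus against spleen. They include the kinases Aurka, Aurkb, Plk1 and Cdk1, the anaphase regulators Cdc20 and Ube2c, the spindle and kinesin proteins Tpx2, Nusap1, Kif11, Kif20a and Prc1, the kinetochore proteins Cenpe and Cenpf, the survivin gene Birc5, Top2a, Ccna2, the kinase subunits Cks1b and Cks2 and the proliferation marker Mki67. Mki67 was among the least different, with a log2 fold change of 0.53 ± 0.89 in thrombus against spleen and -0.15 ± 0.94 in vein wall against spleen. Ube2c and Aurka, both chosen after their values were seen, pointed apart in the 2 tissues, at 2.72 ± 1.35 and 1.46 ± 0.91 in thrombus against spleen and -2.26 ± 1.37 and -0.98 ± 0.94 in vein wall against spleen. Neither gene passed the test in either comparison.

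**Figure D4:**
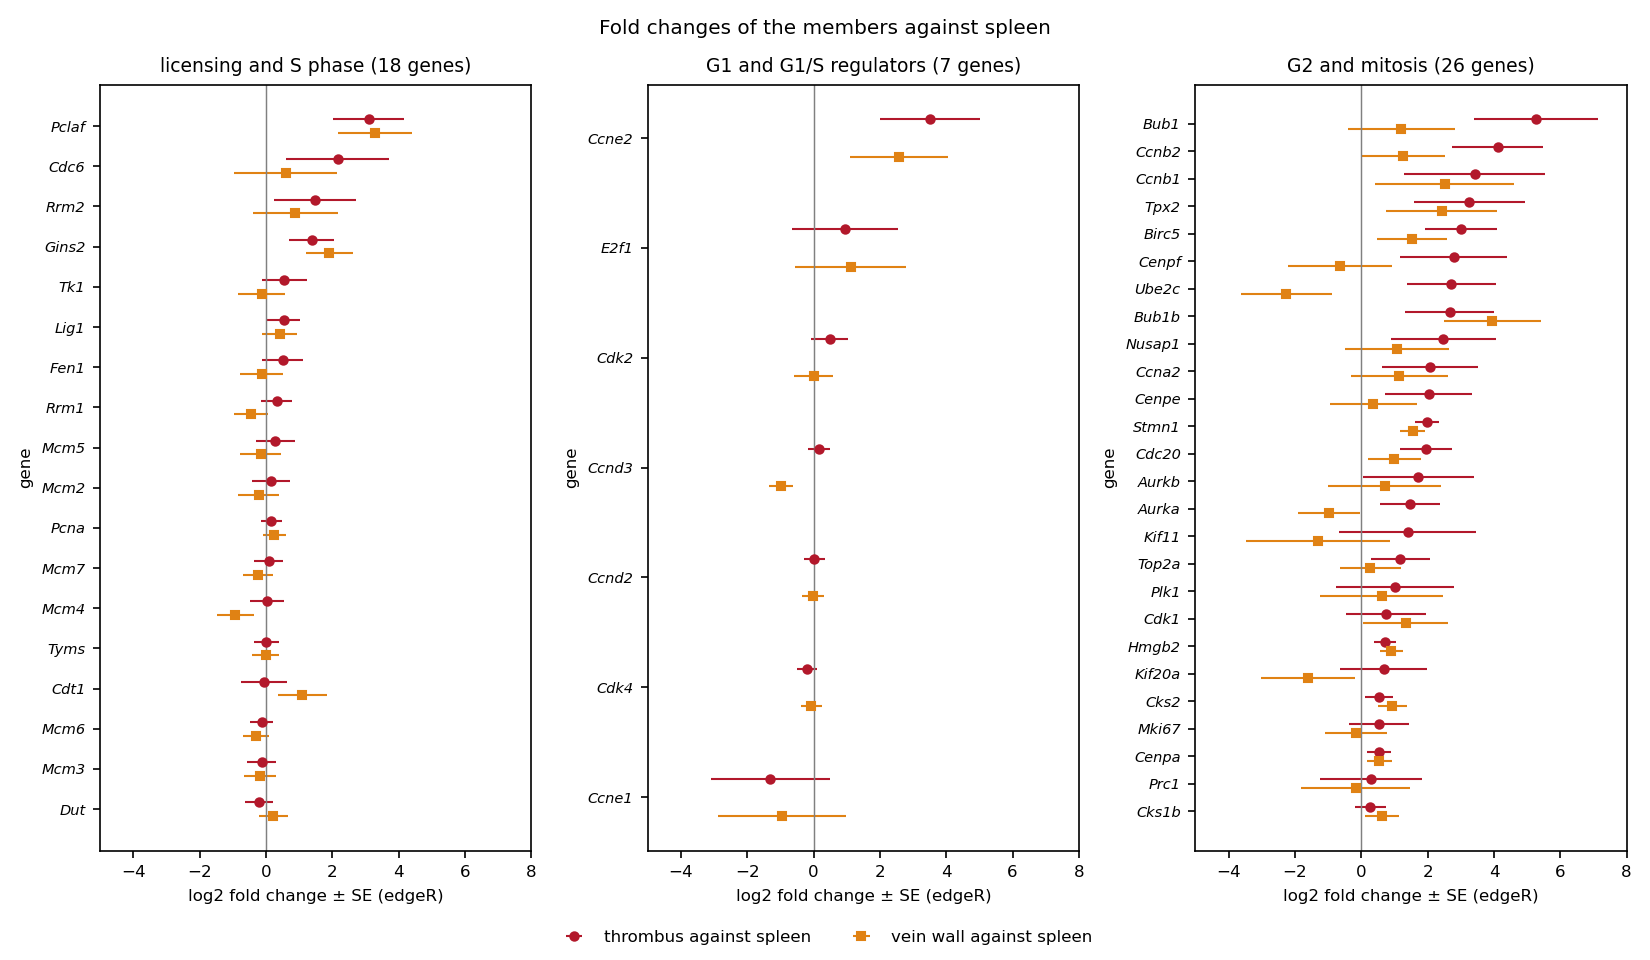
Log2 fold change ± SE (horizontal axis, edgeR) of each member in thrombus against spleen (red circles) and vein wall against spleen (orange squares), by role group. All 26 mitotic members lie above 0 in thrombus against spleen, while most S phase members lie near 0; only Stmn1 passed the test in this fit by tissue alone, in thrombus against spleen.

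By sample, 24, 11, 12 and 11 of the 26 mitotic members reached 10 CPM in thrombus 1 to 4, and 10, 7 and 13 in vein wall 1, 2 and 3-4, against 8, 7 and 7 in spleen. Each thrombus sample thus lay above each spleen sample, and vein wall overlapped spleen. The sum over 23 mitotic members (without the abundant Hmgb2, Stmn1 and Cenpa) was 713, 426, 383 and 307 CPM in thrombus and 344, 251 and 367 CPM in vein wall, against 201, 205 and 156 CPM in spleen. No thrombus or vein wall sum fell as low as a spleen sum, but the sums include the fairly abundant Cks1b and Cks2. In vein wall 2 these 2 genes held 61.8 and 91.5 CPM. They held 29.0 and 50.8 CPM in spleen 1, 78.5 and 61.9 CPM in spleen 2 and 37.6 and 46.2 CPM in spleen 3-4. Without Cks1b and Cks2, vein wall 2 would not lie above spleen 1. No p is given for these sums, since the members were chosen with results of these data known.

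Without thrombus 1, the median log2 fold change of the mitotic members in thrombus against spleen was 0.86, with 23 of 26 above 0, against 0.01 over all genes. With the set of files as a covariate it was 2.12 in all samples and 1.76 without thrombus 1. Within the sets the median difference was 2.30 in set 1 (26 of 26 above 0), 1.21 in set 2 (21 of 26) and 1.42 in set 3 (24 of 26). Vein wall exceeded spleen by a median of 0.71 in set 2 (17 of 26 above 0) and 1.08 in set 3 (18 of 26). Thrombus against vein wall had a median of 0.91 over the 26 genes (20 above 0), 0.23 without thrombus 1 (16 above 0), 1.78 without vein wall 3-4 (20 above 0) and 0.31 with the set of files as a covariate (15 above 0). Both comparisons against spleen share the spleen samples, so their values are not independent.

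**Figure D5:**
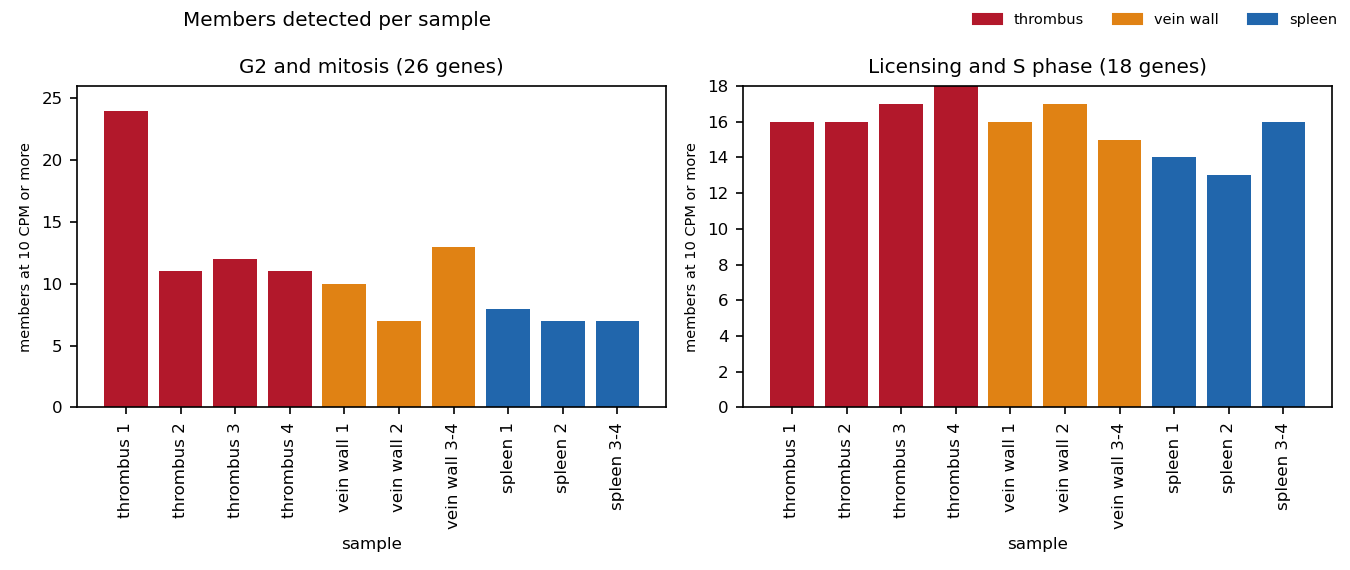
Number of members at 10 CPM or more (vertical axis) in each sample, for the 26 G2 and mitosis genes (left) and the 18 licensing and S phase genes (right). Thrombus 1 holds 24 mitotic members at this level and the spleen samples 7 or 8, whereas the S phase count is 13 to 18 in all samples.

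Of the 18 licensing and S phase genes, none passed edgeR's test in the fit by tissue alone or with the set of files as a covariate, and their fold changes centred near 0. Rrm2 was called in both comparisons against spleen in a fit with that covariate and without spleen 3-4, which was added after seeing the data. At an unadjusted p under 0.05 in edgeR there were 1, 2 and 0 of the 18 in thrombus against spleen, vein wall against spleen and thrombus against vein wall, and DESeq2 called none. Of all genes, 4.13%, 5.47% and 2.91% reached this p in these comparisons. The median log2 fold change was 0.22 in thrombus against spleen (14 of 18 above 0), -0.07 in vein wall against spleen (8 of 18, and 0.22 with the set as a covariate, 12 of 18) and 0.24 in thrombus against vein wall (13 of 18). Without thrombus 1 the first and the last of these medians were -0.03 and -0.04. The sets of files differed. In thrombus against spleen the median difference was 0.73 in set 1 (17 of 18 above 0), 0.20 in set 2 (10 of 18) and -0.09 in set 3 (9 of 18). In vein wall against spleen it was 0.61 in set 2 (12 of 18) and -0.37 in set 3 (7 of 18). In thrombus against vein wall it was -0.37 in set 2 (4 of 18) and 0.02 in set 3 (9 of 18). Between 16 and 18 of the 18 reached 10 CPM in thrombus samples and 15 to 17 in vein wall samples, against 13 to 16 in spleen samples.

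Pcna had 307, 350, 281 and 215 CPM in thrombus 1 to 4, and 308, 372 and 248 CPM in vein wall, against 223, 349 and 203 CPM in spleen. The 3 tissues overlapped. On the log2 scale the fold change was 0.16 ± 0.32 in thrombus against spleen and 0.26 ± 0.34 in vein wall against spleen (adjusted p = 1 and 0.977, edgeR).

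Mcm6, a subunit of the replicative helicase, had 233, 95.8, 203 and 248 CPM in thrombus 1 to 4. It had 146, 217 and 157 CPM in vein wall, against 178, 186 and 274 CPM in spleen. Thrombus 2 was the lowest of all samples and spleen 3-4 the highest. Its log2 fold change was -0.13 ± 0.36 in thrombus against spleen and -0.30 ± 0.38 in vein wall against spleen (adjusted p = 1 and 0.976, edgeR). Mcm2 to Mcm7 together summed to 756, 282, 474 and 570 CPM in thrombus and 485, 444 and 311 CPM in vein wall, against 490, 428 and 649 CPM in spleen.

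Dut, the dUTPase that keeps uracil out of DNA, had 82.1, 47.7, 110 and 39.5 CPM in thrombus, and 55.4, 103 and 126 CPM in vein wall, against 87.9, 75.0 and 79.7 CPM in spleen. Thrombus and vein wall values fell on both sides of the spleen range. Its log2 fold change was -0.21 ± 0.42 in thrombus against spleen and 0.23 ± 0.45 in vein wall against spleen, with adjusted p of 1 and 0.980 in edgeR.

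Pclaf, a partner protein of the PCNA clamp, was the S phase member furthest from 0. It had 13.2, 19.0, 29.0 and 10.9 CPM in thrombus 1 to 4 and 19.7, 32.0 and 9.93 CPM in vein wall, against 2.17, 0 and 4.05 CPM in spleen. All 7 thrombus and vein wall samples lay above all spleen samples. The fitted log2 fold change was 3.10 ± 1.07 in thrombus against spleen (adjusted p = 0.808) and 3.29 ± 1.11 in vein wall against spleen (adjusted p = 0.696, edgeR). Only 13.8% of its exon reads had a unique match, and on unique reads the values were 2.33 and 2.03.

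Cdc6 had 21.5, 5.43, 3.70 and 10.4 CPM in thrombus, and 7.66, 2.74 and 0.0249 CPM in vein wall, against 3.58, 0 and 3.28 CPM in spleen. Every thrombus sample lay above every spleen sample, thrombus 3 only just, and vein wall overlapped both. edgeR gave a log2 fold change of 2.16 ± 1.56 in thrombus against spleen and 0.60 ± 1.56 in vein wall against spleen (adjusted p = 1 and 0.990).

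Gins2, a subunit of the GINS complex of the helicase, had 6.68, 27.2, 43.7 and 21.5 CPM in thrombus, and 17.2, 50.1 and 40.4 CPM in vein wall, against 4.77, 8.90 and 14.8 CPM in spleen. Vein wall did not overlap spleen, and thrombus 1 lay within the spleen range. On the log2 scale the fold change was 1.92 ± 0.72 in vein wall against spleen (adjusted p = 0.766) and 1.38 ± 0.67 in thrombus against spleen (adjusted p = 1, edgeR). On unique reads these were 0.89 and 1.12.

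The remaining 12 S phase members (Mcm2, Mcm3, Mcm4, Mcm5, Mcm7, Cdt1, Lig1, Fen1, Rrm1, Rrm2, Tyms and Tk1) had log2 fold changes of -0.13 to 1.47 in thrombus against spleen and -0.92 to 1.10 in vein wall against spleen. They encode helicase subunits, the licensing factor Cdt1, DNA ligase I, the flap endonuclease and the enzymes of deoxynucleotide supply. Tyms, thymidylate synthase, was the most even of these, with 66.0 ± 6.33 CPM in thrombus (SD, n = 4) and 64.9 ± 8.35 CPM in vein wall (n = 3), against 65.4 ± 26.2 CPM in spleen (n = 3). Rrm2, the small subunit of ribonucleotide reductase, had 131 CPM in thrombus 1 and 10.2 to 19.2 CPM in the other thrombus samples.

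The 7 regulators of G1 and of S phase entry gave no call in edgeR or DESeq2, with 1 of them at an unadjusted p under 0.05 in each comparison (edgeR). Of all genes, 4.13% reached this p in thrombus against spleen, 5.47% in vein wall against spleen and 2.91% in thrombus against vein wall. Ccnd2, the most abundant cyclin among the members, had 591, 775, 742 and 1075 CPM in thrombus 1 to 4 and 626, 831 and 853 CPM in vein wall, against 592, 751 and 998 CPM in spleen. The tissues overlapped throughout. Its log2 fold change was 0.03 ± 0.31 in thrombus against spleen and -0.02 ± 0.33 in vein wall against spleen (adjusted p = 1 for both, edgeR).

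Cdk4, the kinase that D cyclins activate, had 268, 243, 219 and 269 CPM in thrombus, and 299, 324 and 202 CPM in vein wall, against 296, 237 and 332 CPM in spleen. All tissues overlapped, and the log2 fold change was -0.21 ± 0.30 in thrombus against spleen and -0.07 ± 0.32 in vein wall against spleen (adjusted p = 1 and 0.995, edgeR).

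Ccnd3, another D cyclin, had 233, 143, 188 and 190 CPM in thrombus 1 to 4. It had 69.0, 108 and 80.9 CPM in vein wall, against 231, 136 and 140 CPM in spleen. Every vein wall sample lay below every thrombus and spleen sample. The fitted log2 fold change was -0.97 ± 0.36 in vein wall against spleen (adjusted p = 0.766) and 1.13 ± 0.34 in thrombus against vein wall (adjusted p = 0.999, edgeR). Within the sets vein wall differed from spleen by -0.98 in set 2 and -0.58 in set 3.

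Ccne2, a cyclin E of S phase entry, had 4.87, 6.54, 2.54 and 20.8 CPM in thrombus and 3.67, 8.11 and 1.67 CPM in vein wall, against 1.40, 0 and 0.855 CPM in spleen. All 7 thrombus and vein wall samples lay above spleen. edgeR gave a log2 fold change of 3.52 ± 1.51 in thrombus against spleen and 2.57 ± 1.48 in vein wall against spleen (adjusted p = 1 and 0.937). On the 26.3% of its reads with a unique match, these values were 2.60 and 1.25.

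Ccne1, the other cyclin E, had 4.02, 0.615, 3.81 and 0 CPM in thrombus and 0.190, 7.90 and 0 CPM in vein wall, against 8.56, 1.13 and 5.98 CPM in spleen. Its log2 fold change of -1.30 ± 1.79 in thrombus against spleen and -0.95 ± 1.94 in vein wall against spleen was smaller than its error (adjusted p = 1 and 0.980, edgeR). E2f1, a transcription factor of the S phase genes, had 4.74, 3.13, 0.317 and 13.2 CPM in thrombus and 0.127, 10.6 and 7.29 CPM in vein wall, against 2.60, 0 and 5.65 CPM in spleen. It also overlapped between tissues, at 0.95 ± 1.59 in thrombus against spleen and 1.12 ± 1.68 in vein wall against spleen (adjusted p = 1 and 0.980, edgeR). Cdk2, the kinase partner of the E cyclins, averaged 28.6 ± 10.2 CPM in thrombus (SD, n = 4) and 20.4 ± 4.74 CPM in vein wall (n = 3), against 20.4 ± 9.92 CPM in spleen (n = 3).

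Over the whole list, 6 members did not overlap and were higher in thrombus than in spleen (Cdc6, Pclaf, Ccne2, Bub1, Tpx2 and Stmn1), which is 11.8% of the members, against 2.49% of all genes. None were lower without overlap, against 2.5% of all genes. In vein wall, 7 members lay above spleen without overlap (Cdt1, Gins2, Pclaf, Ccne2, Cenpa, Stmn1 and Hmgb2; 13.7%, against 6.75% of all genes) and Ccnd3 lay below (1.96%, against 6.49%). In thrombus against vein wall, Ccnd3, Bub1 and Aurka were higher without overlap (5.88%, against 2.35% of all genes). These counts are of total exon reads. On reads with a unique match, Cdt1, Gins2, Pclaf and Ccne2 of vein wall overlapped spleen, and so did Ccne2 of thrombus. Ccna2 went the other way on unique reads, with 18.2, 1.34, 2.01 and 2.60 CPM in thrombus, above 0.351, 0 and 0.233 CPM in spleen. The share of all genes without overlap on unique reads was not counted. Before adjustment, 8 members reached p under 0.05 in thrombus against spleen (15.7%, against 4.13% of all genes), 7 in vein wall against spleen (13.7%, against 5.47%) and 5 in thrombus against vein wall (9.80%, against 2.91%).

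Other tools moved the calls by a few genes. In DESeq2, Stmn1, Bub1 and Ccnb2 rose in thrombus against spleen (0.903% of all genes called), Stmn1 in vein wall against spleen (1.02%) and Ube2c in thrombus against vein wall (0.0868%). With no filter on low counts, edgeR called Stmn1, Ccnb2 and Birc5 in thrombus against spleen (0.417%), Stmn1 in vein wall against spleen (0.344%) and no member in thrombus against vein wall (0.0104%). Ube2c and Birc5 are named for these calls.

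Members differed in how uniquely their reads matched the genome, and the share varied with the set of files. At least 90% of exon reads were unique for 33 of the 51 members and under 50% for 9 (Cdt1, Gins2, Fen1, Pclaf, Tk1, Ccne2, Hmgb2, Prc1 and Cks2). For Fen1, the flap endonuclease, 5.19% of reads were unique in set 1, 100% in set 2 and 7.07% in set 3. Gins2 had 83.6%, 93.4% and 10.03% in these sets, and Pcna had 41.9%, 100% and 39.7%. On unique reads the median log2 fold change of the mitotic members was 1.85 in thrombus against spleen and 0.79 in vein wall against spleen.

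Beyond the members, 118 other cell cycle genes were listed, of which 113 passed the filter (not Cdkn2a, E2f7, Ttk, Espl1 and Nek2). None of them passed edgeR's test in the fit by tissue alone, and 5 (4.42%, against 4.13% of all genes), 4 (3.54%, against 5.47%) and 9 (7.96%, against 2.91%) reached an unadjusted p under 0.05 in thrombus against spleen, vein wall against spleen and thrombus against vein wall. Their median log2 fold change was 0.35 in thrombus against spleen, -0.03 in vein wall against spleen and 0.37 in thrombus against vein wall. For the 42 tested genes of mitosis among them, these medians were 0.73 (36 above 0), 0.26 (23 above 0) and 0.61 (34 above 0). In thrombus against spleen the 26 mitotic members had 1.83. Within sets 1, 2 and 3 the 42 genes had median differences of 1.41, 0.59 and 0.0047 in that comparison (39, 29 and 21 above 0). The 26 members had 2.30, 1.21 and 1.42. Cdkn1a, which encodes the cyclin-dependent kinase inhibitor p21, had 78.3, 121, 11.7 and 25.7 CPM in thrombus and 68.5, 16.2 and 8.61 CPM in vein wall, against 6.73, 14.3 and 2.10 CPM in spleen. Thrombus 3 and vein wall 3-4 lay within the spleen range. With the set of files as a covariate, Cdkn1a rose by 3.23 ± 0.51 in thrombus against spleen (adjusted p = 0.00271, edgeR) and by 2.51 ± 0.54 in vein wall against spleen (adjusted p = 0.0427). It was the 1 gene of the 113 called in each of these comparisons, where 0.454% and 0.411% of all genes were called. The fit by tissue alone gave Cdkn1a 2.95 ± 0.98 (adjusted p = 0.823) and 2.02 ± 0.97 (adjusted p = 0.905, edgeR). Within the sets, thrombus exceeded spleen by 3.44, 3.04 and 2.78 on the log2 scale in sets 1, 2 and 3.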

How the data were processed

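Full-length cDNA was made with a SMART-Seq v4 kit from 2 ng of total RNA (12 cycles) and tagged with Nextera XT, per the labels' protocols. These kits mark no strand and carry no molecular identifiers, so counting errors and floors cover counting error only. The authors deposited counts of total and unique exon reads per gene. Total exon reads, which include reads with several matches, were used. Reads were mapped to GRCm38 (submitters' processing notes). For the aligner and the counter no name was given in the sources used here. Sets 1 and 3 were joined by Ensembl identifier and set 2 by name (20716 genes by symbol, 119 by synonym); the join holds 92.2% to 96.3% of exon reads.

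edgeR 4.0.16 (R 4.3.3) tested the counts (robust quasi-likelihood F test, TMM, default filter on low counts, tissue as the factor, all 10 samples sharing 1 estimate of spread), with Benjamini-Hochberg adjustment over all genes tested and a call at an adjusted p under 0.05, two-sided. The fit with the set of files as a covariate stands beside it, as do DESeq2 1.42.0, unique reads, no filter, a stricter filter, RLE scaling, separate libraries, a replicate block and each sample left out. Within-set differences use log2(CPM + 0.5). The members and lists were chosen with earlier results of these data known. Members with per-sample values are those called, the 3 most abundant per role and the 2 with the largest fold change per role in each comparison against spleen. The labels do not say which libraries share a mouse.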

Additional observations from a re-analysis of the deposited data

Results flagged for a closer look

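In 6 of the 51 members, thrombus 1 lay further above the other 3 thrombus samples than Dixon's 95% rule allows for a single sample of 4. Chance passes this rule for about 1 in 20 genes where values are normally distributed. Here it was applied to CPM without a log, and the share of all genes that pass it was not counted. Whether 6 of 51 is more than that share therefore cannot be told. Mcm5 had 119 CPM in thrombus 1, the next thrombus sample 38.9 CPM. Mcm7 had 97.4 CPM, next 49.9 CPM. Rrm2 had 131 CPM, next 19.2 CPM. Ccna2 had 23.0 CPM, next 3.99 CPM. Cdk1 had 28.8 CPM, next 8.33 CPM. Aurkb had 26.7 CPM, next 4.47 CPM. All 6 values are also above the highest spleen sample for the gene. The genes are not independent of each other within 1 sample. Thrombus 1 also shares set 1 of the files with spleen 1 only, and the part of the set in these values was not tested.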

How the results depend on the processing

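The count of members called depended on the setting. In thrombus against spleen it was 1 in the fit by tissue alone (0.145% of all genes called) and 1 with the set of files as a covariate (0.454%). It was 3 in DESeq2 (0.903%), 3 with no filter on low counts (0.417%) and 0 without set 2 of the files. The share of all genes called thus changed with the setting too. Leaving out each sample in turn gave 0 to 1, with 0 without spleen 1, 2 or 3-4 or without thrombus 1. With the set as a covariate, a combination chosen after seeing the data, leaving out each sample gave 0 to 2, with 2 without spleen 3-4 (Rrm2 and Stmn1), 2 without thrombus 4 (Ccnb2 and Stmn1) and 0 without thrombus 1. In vein wall against spleen the count was 0 in the fit by tissue alone (0.111% of all genes called) and in each such fit that left out a sample. It was 1 with the set as a covariate (0.411%), 1 in DESeq2 (1.02%) and 1 with no filter (0.344%). It was 3 with the set and 12 separate libraries, a fit that counts the summed pairs of similar libraries as separate samples. With the set as a covariate over the summed samples, leaving out each sample gave 0 to 2. It was 2 without spleen 3-4 (Rrm2 and Stmn1), and 1 each without thrombus 2, thrombus 4 and vein wall 3-4. In thrombus against vein wall it was 0 in the fit by tissue alone (0% of all genes called), and 1 in DESeq2 (0.0868%). The causes of these shifts were not tested, beyond the smaller number of samples in fits that leave one out.

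Per the labels the replicate numbers are also the values of a tag exp, which they do not explain. Deviations of same-numbered samples correlated at 0.0912 to 0.431 in thrombus against spleen, -0.0921 to 0.0582 in vein wall against spleen and 0.0038 to 0.219 in thrombus against vein wall. Since not every same-numbered pair passed 0.1, the numbers were not taken to pair the samples, and whether they mark a shared experiment cannot be told from the labels. In each comparison the highest correlation came from libraries that share a set of files. It was 0.431 for thrombus 1 with spleen 1, 0.219 for vein wall 1 with spleen 2 and 0.413 for thrombus 2 with vein wall 1. The latter pairs differ in number. The part of the set in these values was not tested. With the replicate block, 1 member was called in thrombus against spleen and 0 in the other 2 comparisons, and Stmn1 had an adjusted p of 0.00926 over summed samples and 0.00992 over 12 libraries in edgeR.

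Of 1137 refitted log2 fold changes of the 19 members with per-sample values, 1075 kept their direction and side of the threshold, 6 became called and 5, all Stmn1, lost the call. The other 51 changed sign, none of them called, and the cause was not tested. In thrombus against spleen these were Ccnd2 at -0.046 with the set as a covariate, -0.054 with 12 libraries, -0.055 and -0.033 with the replicate block (12 libraries and summed) and -0.0062 on unique reads, Pcna at -0.015 on unique reads, and Mcm6 at 0.033 without set 2. In vein wall against spleen they were Ccnd2 at 0.00062 with the block (summed), 0.00020 under RLE scaling, 0.00017 in DESeq2, 0.032 with no filter and 0.12 without set 2, and Cdc6 at -0.81 with the block (12 libraries) and -1.29 without set 2. In thrombus against vein wall they were Ccnd2 at -0.033 with the block (summed), -0.019 with no filter and -0.075 without set 2, Pclaf at 0.022 with 12 libraries and 0.30 on unique reads, Gins2 at 0.23 on unique reads, Ccne1 at 0.063 with 12 libraries and 2.67 and 1.01 with the block (12 libraries and summed), E2f1 at 1.24 with the set as a covariate, and Cenpa at 0.068 with 12 libraries and 0.037 and 0.034 with the block.

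Leaving out each sample in turn changed the sign of some of these values. The ranges in thrombus against vein wall were Pcna -0.24 to 0.040, Pclaf -0.52 to 0.28, Ccnd2 -0.13 to 0.17, Ccne1 -0.94 to 4.51, E2f1 -1.13 to 0.51 and Cenpa -0.15 to 0.19. The ranges in thrombus against spleen were Mcm6 -0.28 to 0.11, Ccnd2 -0.18 to 0.24 and E2f1 -0.0097 to 2.04. The ranges in vein wall against spleen were Dut -0.031 to 0.53, Cdc6 -0.70 to 1.18, Ccnd2 -0.20 to 0.20 and Cdk4 -0.18 to 0.11.

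Depth sets what a count of 0 allows (0.0542 to 0.309 CPM). Of the mitotic members 50% averaged under 10 CPM, and the median within-tissue SD of all 26 was 1.48 on the log2 scale; the part of depth in this spread was not tested.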
